A study of Homo sapiens with 4 samples.

Results

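The anaphase-promoting complex (APC/C) and the ubiquitin-conjugating enzyme UBE2C were followed in naive NB4 cells and in an arsenic trioxide (ATO) resistant line derived from them. The members were 10 genes of the 18211 named on the array, namely UBE2C, UBE2S, CDC20, FZR1, FBXO5, ANAPC1, ANAPC5, ANAPC10, ANAPC11 and CDC27. They are read by 18 of the 41000 probes of the array, and every probe that carried one of these gene names was taken. The members were selected on the measured difference between the lines, so that their own differences are a description, and no p-value is given for them.

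The APC/C is a large ubiquitin ligase that marks mitotic proteins for destruction and so lets a cell separate its chromosomes and leave mitosis. It works with CDC20 in mitosis and with FZR1 (CDH1) from late mitosis into the next growth phase. UBE2C places the first ubiquitins on a substrate and UBE2S lengthens the chain, while FBXO5 (EMI1) holds the complex inactive until mitosis begins.

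NB4 is an established human acute promyelocytic leukemia (APL) cell line. The resistant line was derived from it in-house, is called a clone in the methods and is written NB4-VM-AsR1 in the sample labels and NB4-EV-AsR1 in the methods, which are taken here for the same clone. Both lines were grown in RPMI with FBS, and the resistant cells were kept without ATO for a week before harvest. There were 2 flasks per line, and the Cy3-labeled RNA of each was read on an Agilent whole human genome array of its own. The 4 arrays lay on 1 slide with the naive flasks at the first positions and the resistant flasks at the last, so that position and line cannot be told apart. With 2 flasks per line the smallest p of a two-sided exact permutation test is 0.333, and p-values measure the spread between these flasks only.

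Between 27922 and 28244 of the 41000 probes were well above background on an array, and between 458 and 565 were saturated. Values are log2 signals relative to the 75th percentile of each array, at which a value of 0 lies. Of 6 promyelocyte markers, 5 stood well above background in every flask, and MPO, the neutrophil granule peroxidase, was saturated in all 4. AZU1, the granule protein azurocidin, was higher in the resistant line (log2 change 1.17, limma adjusted p = 0.0472). ELANE, neutrophil elastase, gave -5.74 and -6.56 in the naive flasks and -3.66 in each resistant flask, a log2 change of 2.49. It was well above background on 3 of the 4 arrays and was tested only through the resistant flasks. The size of its change rests on dim naive values, and no p-value is given for it. Of the markers of other cell types, CD3E, EPCAM and PECAM1 stood well above background in every flask, and MS4A1, HBB, COL1A1, COL3A1 and CDH5 did so in none. Spread between flasks was wider in the naive line, where differences between the flasks had an SD of 0.71 on the log2 scale over all probes tested, against 0.37 in the resistant line.

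UBE2C was read by 1 probe of 60 bases, A_24_P297539 on chromosome 20 (hg19), so that the largest difference among the members rests on this probe alone. The array lists 4 RefSeq transcripts for it. No other probe on the array shared a run of 20 bases with it, on either strand. The RefSeq table of GRCh38.p14 names 5 pseudogenes of UBE2C, and whether their transcripts reach the probe was not tested.

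The UBE2C signal was 1.22 in naive flask 1 and 1.32 in naive flask 2, and -2.12 in resistant flask 1 and -2.21 in resistant flask 2. Both naive flasks were high and both resistant flasks low, with no overlap. As background-subtracted intensities before normalization, these were 2518.5 and 2248.4 in the naive flasks and 242 and 182 in the resistant flasks, all well above background and none saturated. The means were 1.27 ± 0.07 (SD, n = 2) and -2.16 ± 0.06 (SD, n = 2), a difference of -3.43 on the log2 scale, or 10.8-fold lower in the resistant line. After normexp background correction it was -2.70, or 6.51-fold. In these bulk samples, fewer cells that express the gene and less RNA per cell cannot be told apart. Over 13862 genes tested, 174 (1.26%) had a lower log2 difference. The UBE2C values differed by 0.10 between the naive flasks and by 0.09 in size between the resistant flasks, where it was lower in flask 2, and 86.6% of probes were at least as far apart between the naive flasks.

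**Figure D1:**
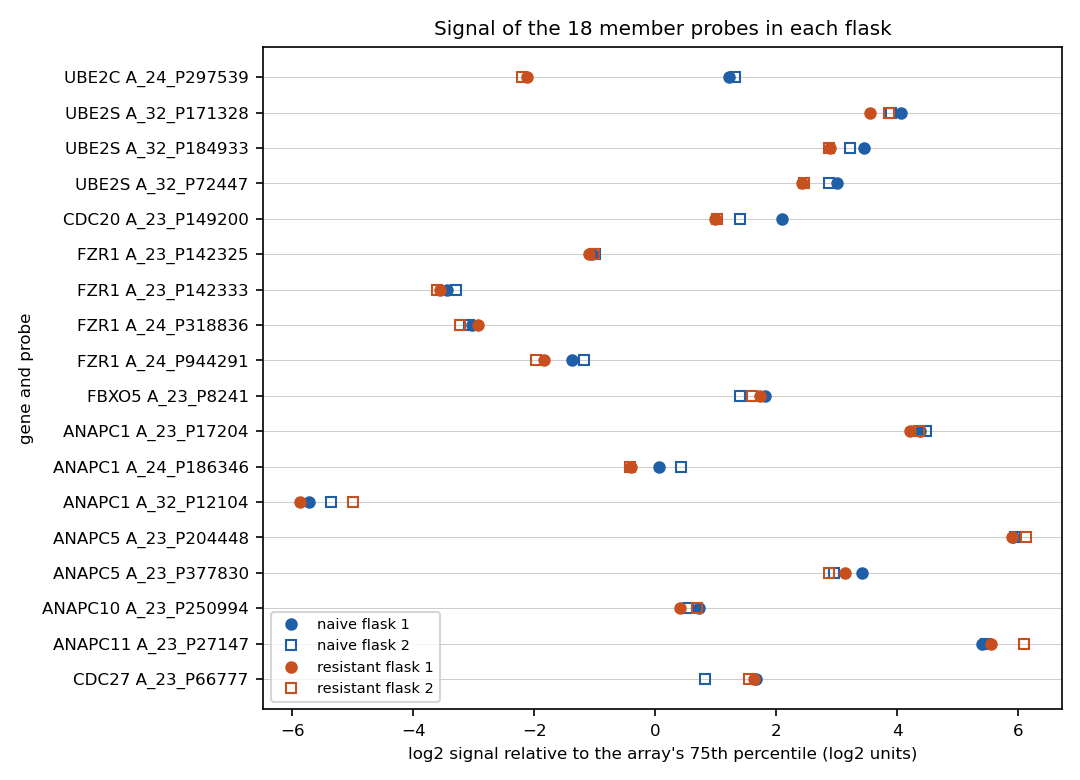
Log2 signal relative to the array's 75th percentile (horizontal axis) of the 18 member probes (rows) in 2 naive flasks (blue) and 2 resistant flasks (orange), each point being 1 flask. UBE2C lies at 1.22 and 1.32 in the naive flasks and at -2.12 and -2.21 in the resistant flasks, and positions on the axis are not comparable between probes.

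Calls required a limma adjusted p below 0.05 together with a 2-fold or larger change. On that rule 5.27% of the 28221 probes tested were called, and of the 18 member probes, all tested and all well above background on the 4 arrays, 1 was, that of UBE2C. It was not called after normexp correction or with the methods' t-test after adjustment, under which 0 probes of the array were. The other 17 differed by less than 2-fold between the lines. Of the 18, 10 showed no overlap between the naive and resistant flasks, where 52.8% of the 28054 tested probes with a value on all 4 arrays did so. On the mean, 13 of the 18 lay lower in the resistant line. Because the contrast chose the members, nothing is read from these counts.

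UBE2S, the chain-elongating partner of UBE2C, was read by 3 probes. The file places all of them on chromosome 17 (hg19), whereas the RefSeq table has UBE2S on chromosome 19 and its pseudogenes UBE2SP1 and UBE2SP2 on chromosome 17, so that signal of the gene and of near-identical copies cannot be separated. Probes A_32_P72447 and A_32_P184933 overlap by 46 bases and differ there at 1 base, in capitals below, which is why both are shown.
A_32_P72447: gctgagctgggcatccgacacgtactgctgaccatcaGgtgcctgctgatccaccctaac
A_32_P184933: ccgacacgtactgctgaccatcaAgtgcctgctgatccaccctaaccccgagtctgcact
Counted from 1 at the 5′ end of A_32_P72447, the difference is G38A. Signals of A_32_P72447 were 3.01 and 2.87 in the naive flasks and 2.43 and 2.47 in the resistant flasks, a difference of -0.49. For A_32_P184933 they were 3.45, 3.23, 2.89 and 2.87 in the same order, a difference of -0.46. The third probe, A_32_P171328, gave 4.07, 3.89, 3.54 and 3.87, a difference of -0.27. On each of the 3 probes both naive flasks lay above both resistant flasks, by 0.02 at the nearest pair for A_32_P171328. Over the array 52.8% of tested probes showed no overlap between the lines, in either direction, and nothing is read from this count.

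CDC20, the mitotic co-activator that brings substrates to the APC/C, had signals of 2.09 and 1.40 in the naive flasks and 0.99 and 1.02 in the resistant flasks. Both naive flasks were above both resistant flasks, but naive flask 1 stood 0.69 above naive flask 2. The means were 1.75 ± 0.49 (SD, n = 2) and 1.00 ± 0.02 (SD, n = 2), a difference of -0.74, or 1.68-fold lower in the resistant line. Without naive flask 1 the difference was -0.40 and without naive flask 2 it was -1.09.

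FZR1, the co-activator that replaces CDC20 at the end of mitosis, was read by 4 probes that disagreed in size. The probe with the highest mean signal, A_23_P142325, gave -1.05 and -1.00 in the naive flasks and -1.09 and -1.01 in the resistant flasks, a difference of -0.02 with overlap between the lines. Probe A_24_P944291 gave -1.37, -1.18, -1.84 and -1.97, a difference of -0.63 with no overlap. The other 2 probes differed by -0.21 (A_23_P142333, no overlap) and -0.03 (A_24_P318836, overlap).

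FBXO5, the inhibitor of the complex, had signals of 1.81 and 1.40 in the naive flasks and 1.74 and 1.61 in the resistant flasks. The lines overlapped, and the difference of 0.07 was smaller than the 0.41 by which naive flask 2 lay below naive flask 1.

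Among the core subunits, ANAPC1, the largest scaffold protein of the complex, gave 4.38 and 4.47 in the naive flasks and 4.21 and 4.37 in the resistant flasks on its probe of highest mean signal, A_23_P17204, a difference of -0.14 without overlap. A second ANAPC1 probe, A_24_P186346, gave 0.07, 0.43, -0.39 and -0.41 in that order, a difference of -0.65 without overlap. The accessions listed for that second probe include the transcript of the pseudogene ANAPC1P2, so that it may not read the same RNA. The third ANAPC1 probe, without a position in the file, differed by 0.11 with overlap.

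ANAPC5, a scaffold subunit as well, differed by 0.08 on probe A_23_P204448, which was saturated on 3 of 4 arrays and can hide a difference, and by -0.18 on A_23_P377830. ANAPC10, which helps to bind substrates, gave 0.73 and 0.54 in the naive flasks and 0.41 and 0.69 in the resistant flasks, a difference of -0.08 with overlap. ANAPC11, the RING subunit of the catalytic centre, gave 5.41 and 5.46 in the naive flasks and 5.55 and 6.10 in the resistant flasks. It was therefore higher in both resistant flasks, by 0.39 on the mean, with saturation on 1 array and a gap of 0.55 between the resistant flasks. CDC27, one of the repeat-containing arm subunits, gave 1.67 and 0.82 in the naive flasks and 1.63 and 1.55 in the resistant flasks. Naive flask 2 alone was low there, and the mean difference of 0.35 was smaller than the gap of 0.85 between the naive flasks. The RefSeq table names 11 pseudogenes of CDC27, and their part in the signal was not tested.

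**Figure D2:**
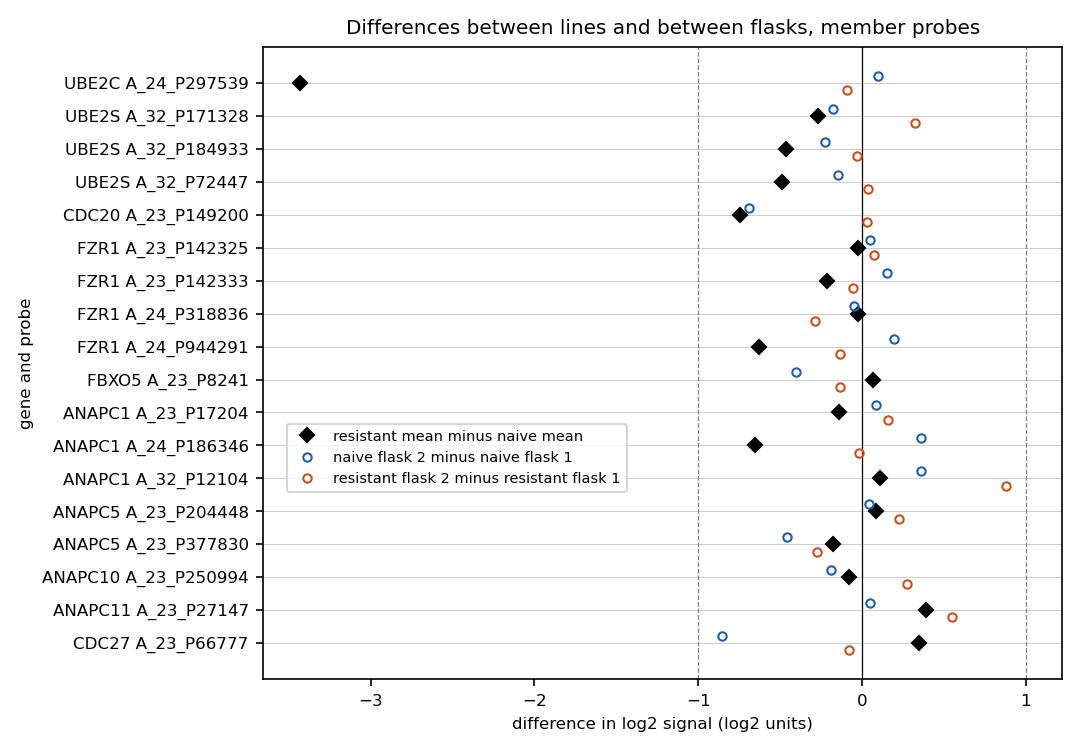
Differences in log2 signal (horizontal axis) for the 18 member probes (rows), with the difference between line means as black diamonds, naive flask 2 minus flask 1 as blue circles and resistant flask 2 minus flask 1 as orange circles; dashed lines mark a 2-fold difference. The UBE2C diamond lies at -3.43 and its 2 circles at 0.10 and -0.09, while the 17 other diamonds lie inside the dashed lines.

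Genes of the same pathway that are not members were described from 6 lists of 100 genes, each gene by its probe of highest mean signal. Of the 99 that could be tested, 1 was called lower and 0 were called higher by limma, and 8 (8.08%) reached an unadjusted p below 0.05. Over all 13862 genes tested, 2921 (21.1%) reached that unadjusted p, 6.21% were called, 2.87% higher and 3.34% lower in the resistant line, and the median log2 difference was 0.0025. The single call was CDC14B, a phosphatase of the mitotic exit family, at -1.87 and -1.59 in the naive flasks and -3.23 and -2.91 in the resistant flasks. Its difference of -1.34 had a limma adjusted p of 0.0499, and a second CDC14B probe differed by -0.94 (limma adjusted p = 0.167). The count of called list genes was 0 in 8 of 13 other processing settings and 2 or 3 in 3 of them, and it was 0 without either resistant flask. The other 6 tested genes that control the APC/C were not called, 1 more than CDC14B reached an unadjusted p below 0.05, and USP44, a deubiquitinase, was not well above background on any array. Differences in that list ranged from -1.34 to 0.74, with a median of -0.06.

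None of the 9 further APC/C subunits was called, and 0 had an unadjusted p below 0.05 in limma. Their median difference was -0.01, with a range from -0.49 to 0.57. ANAPC16, a small subunit, differed by -0.01 (SE 0.24), and ANAPC4, a platform subunit, by 0.57 (SE 0.25, limma adjusted p = 0.297).

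Among 11 spindle checkpoint genes, whose products hold CDC20 back until chromosomes are attached, 0 were called and 0 had an unadjusted p below 0.05 in limma. The median difference was -0.16. BUB3 and MAD2L1, both parts of the CDC20-binding checkpoint machinery, differed by -0.29 (SE 0.27) and -0.18 (SE 0.27).

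The 27 APC/C substrates gave 0 calls in limma, 2 at an unadjusted p below 0.05, and 0 with the methods' t-test when the same 2-fold limit and no adjustment were applied. Of them 13 lay lower and 14 higher in the resistant line, with a median difference of 0.01. TK1, the thymidine kinase of the salvage pathway, gave 5.13 and 3.98 in the naive flasks and 5.75 and 6.03 in the resistant flasks, a difference of 1.33 (SE 0.42, limma adjusted p = 0.18), the highest in the list. BIRC5 (survivin) differed by 0.31 (SE 0.24, limma adjusted p = 0.538). RRM2, a subunit of ribonucleotide reductase named here for the lowest value in the list, was 2.81 and 1.69 in the naive flasks and 1.31 and 1.19 in the resistant flasks, a difference of -1.00 (limma adjusted p = 0.275).

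The substrates differed between the 2 naive flasks. All 27 were lower in naive flask 2 than in naive flask 1, by 0.59 at the median and by 0.10 to 1.47 over the list, whereas 6577 of 13821 genes (47.6%) were lower there and the median over all genes was 0.03 higher. Of the 11 checkpoint genes 10, and of the 14 replication genes 11, were also lower in naive flask 2. So were 21 of the 31 other E2 enzymes and 6 of the 9 further APC/C subunits, against 2 of 7 APC/C control genes. Of the 10 members, each by its probe of highest mean signal, 5 lay lower in naive flask 2. These were CDC27 by 0.85, CDC20 by 0.69, FBXO5 by 0.41, ANAPC10 by 0.19 and UBE2S by 0.18. The other members were higher there by at most 0.10, the value of UBE2C. Between the resistant flasks the substrate median differed by 0.06. With 1 flask against 1 these differences have no test.

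The substrate differences turned on which naive flask was used. Without naive flask 2, CCNB1 (cyclin B1), CDCA3, HMMR and RRM2 were more than 2-fold lower in the resistant line, with log2 differences from -1.55 to -1.08. Without naive flask 1, TK1 was higher by 1.91 on the log2 scale, and its 2 naive flasks differed by 1.15. A lone naive flask shows no spread of its own, so that no test of these differences is given. UBE2C differed by -3.48 without naive flask 1 and by -3.38 without naive flask 2.

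Among 31 other E2 enzymes, 0 were called in limma and 4 had an unadjusted p below 0.05, and the methods' t-test without adjustment called 2. UBE2R2, an E2 of cullin ligases, differed by 0.21 (SE 0.22). The range ran from UBE2E2 at -1.25 (limma adjusted p = 0.0736) to UBE2W at 1.00 (limma adjusted p = 0.0833). The 14 DNA replication and proliferation genes gave 0 calls and 0 at an unadjusted p below 0.05 in limma, with a median of 0.03, and MCM7 and MCM3, helicase subunits, were saturated on all 4 arrays. MKI67, the proliferation antigen, had the lowest value of that list at -0.61 (limma adjusted p = 0.262).

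**Figure D3:**
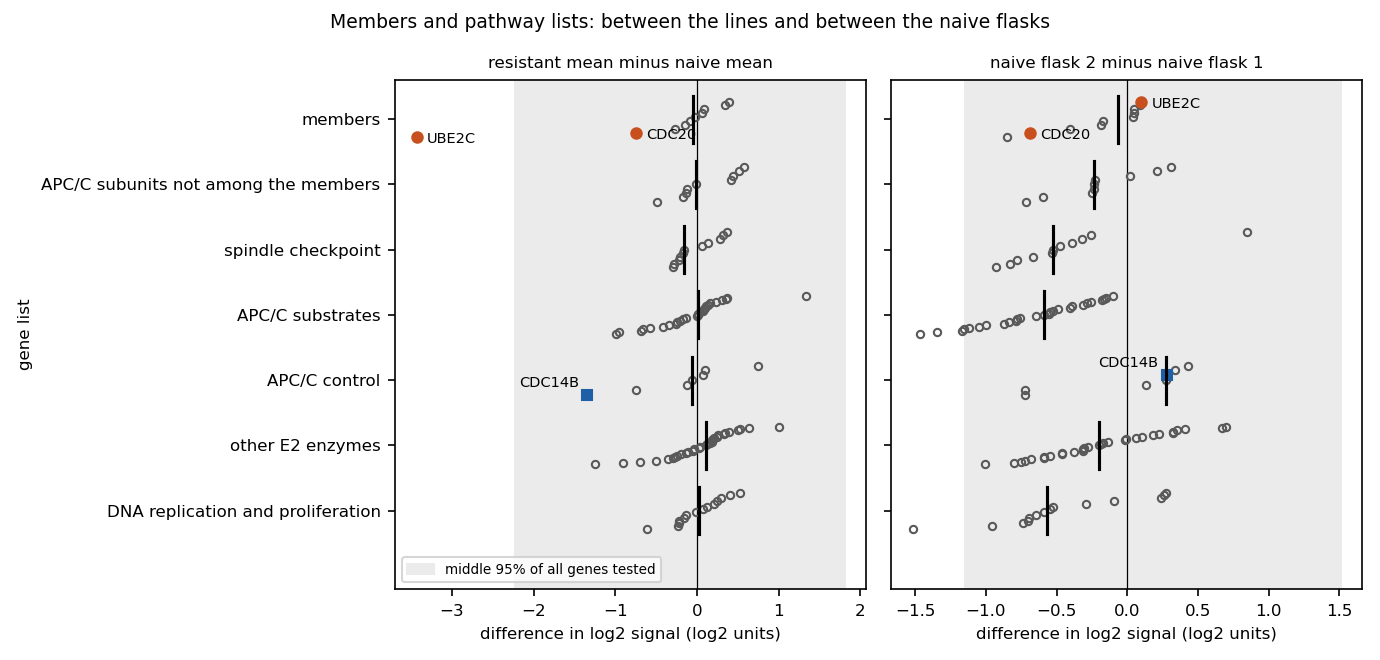
Difference in log2 signal (horizontal axes) of the 10 members and of the genes of 6 lists (rows), between the line means (left) and between the naive flasks (right), 1 point per gene with a bar at each list's median; grey marks the middle 95% of all genes tested. On the left UBE2C stands at -3.43 outside the grey band, the single called list gene, CDC14B, at -1.34; on the right all 27 substrates lie below 0.

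The promoter of CDC20 is shown as an example, chosen after values had been seen. CDC20 and all 27 substrate genes lay lower in naive flask 2 than in naive flask 1. So did CDC27, FBXO5, ANAPC10 and UBE2S among the members, and CDC27 by more than CDC20. Whether promoter letters bear on that flask difference was not tested. The 250 bases before its annotated start, from RefSeq (GRCh38.p14, chr1:43358731-43358980, plus strand), are printed with matches to TTTGAA, the core of the cell cycle genes homology region, and to CCAAT, the NF-Y box, on either strand in capitals, and no 2 matches overlap.
CDC20 promoter: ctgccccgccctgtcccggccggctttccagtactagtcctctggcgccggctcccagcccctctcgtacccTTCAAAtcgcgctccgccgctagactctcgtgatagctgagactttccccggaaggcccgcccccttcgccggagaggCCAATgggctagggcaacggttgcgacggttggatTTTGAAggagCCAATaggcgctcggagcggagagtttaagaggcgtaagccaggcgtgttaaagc
On the printed strand CCAAT began 100 and 55 bases before the start and TTTGAA 65 bases before it. The match to TTTGAA on the other strand, printed as TTCAAA, had its left edge 178 bases before the start. Over 35116 promoter windows of this length, 13.3% held TTTGAA, 32.0% held CCAAT and 4.69% held both. Of 29 windows for 23 of the substrate genes, 4 (13.8%) held TTTGAA, near the share of all windows, and 21 (72.4%) held CCAAT. The CDC27 window held CCAAT and no TTTGAA. The promoter table had entries for 9 of the 10 members and the UBE2C promoter was not analysed here. A match is a description of the letters and not of a bound site.

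The genes around UBE2C were examined in a window of 250 kb on either side of its probe, added after values had been seen. Of 27 probes there, 21 were tested and 2 were called, where 5.27% of all probes tested on the array were called. The nearest was DNTTIP1, 5.82 kb away, with 3.43 and 3.16 in the naive flasks and 2.85 and 3.09 in the resistant flasks, a difference of -0.33 (limma adjusted p = 0.521). MMP9, a gelatinase gene 199.6 kb away, gave 5.43 and 5.39 in the naive flasks and 3.31 and 3.49 in the resistant flasks, and fell by 2.01 on the log2 scale (SE 0.22, limma adjusted p = 0.009). NEURL2, 71.84 kb away, was too dim to count as well above background in the naive flasks and was tested only through the resistant flasks. It was at least 1.64-fold higher in the resistant line, a bound from the dimmest probes well above background on the naive arrays. That bound is below the 2-fold limit of a call, so that the call of NEURL2 rests on naive values near background. SNX21, a sorting nexin gene and the next one after DNTTIP1, differed by 1.22 (24.76 kb away, limma adjusted p = 0.0651) and 0.82 (25.86 kb away, limma adjusted p = 0.268) on its 2 tested probes. Neither SNX21 probe showed overlap between the lines, as was so for 52.8% of tested probes over the array. The count of called probes in the window was 1 in 8 of 12 other processing settings and 0 after normexp correction or with the methods' t-test after adjustment, and it was 0 without either resistant flask and 4 without either naive flask.

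**Figure D4:**
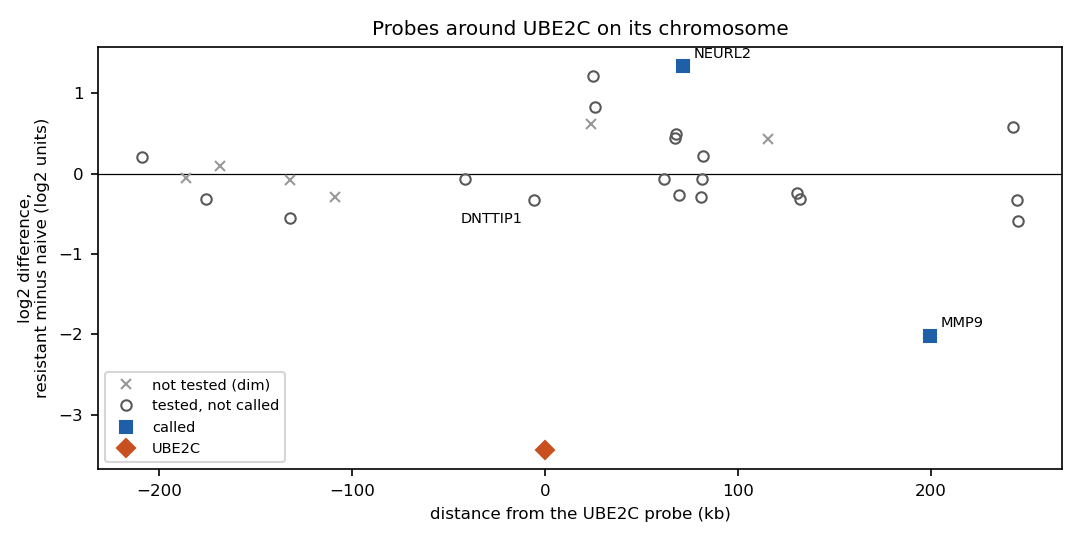
Log2 difference, resistant minus naive (vertical axis), of the probes within 250 kb of the UBE2C probe against their distance from it in kb (horizontal axis), with called probes as squares, tested probes that were not called as open circles and untested dim probes as crosses. UBE2C lies at -3.43, MMP9 at -2.01 and the nearest probe, of DNTTIP1, at -0.33.

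The flask profile of UBE2C was set against 12926 genes by the root mean square difference of profiles centred on their own mean over the 4 arrays. Among the 5 most alike were SSPN, sarcospan (0.12), POPDC1, a membrane protein of the Popeye family (0.12), SH3PXD2B, a podosome adaptor (0.15), and NRP1, a co-receptor for semaphorins and VEGF (0.16). Their log2 differences lay between -3.49 and -3.37. SSPN, for example, gave -2.06 and -1.75 in the naive flasks and -5.48 and -5.31 in the resistant flasks. These genes were found by likeness over 4 arrays, which any gene with a like difference between the lines will show.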

How the data were processed

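RNA of 2 naive and 2 resistant NB4 flasks was hybridized to 1-colour Agilent arrays. The authors extracted images with Feature Extraction 10.5.1.1, and the deposited processed signal is a background-subtracted intensity on a linear scale. Mean spot and local background intensities were deposited too, as was the authors' log2 table from GeneSpring GX, in which each array was shifted to its 75th percentile.

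In R 4.3.3, log2 of the processed signal was taken, control and outlier spots were left out, spots of a probe were averaged and the array's 75th percentile was subtracted (Pearson's r with the deposited table at least 0.9998 across probes). A probe was tested with limma 3.58.1 (lmFit, eBayes, Benjamini-Hochberg) if both arrays of a line, or of each line, had it well above background. Current symbols came from RefSeq accessions for 26222 of 41000 probes, and probe positions are hg19.

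The flasks are independent cultures according to the methods. Members and lists were chosen with earlier results of these data known. Named genes were all members, the called genes of each list or otherwise the 2 of highest mean signal, and the 5 profiles most like UBE2C. A few items that these rules took are not reported here. Genes at the ends of a list's range and the neighbours of UBE2C were named after their values were seen. The test was checked on simulated data with independent flasks and the same spread in both lines. That check does not cover the wider naive spread seen here. Alternatives were normexp background correction (offset 50), quantile and scale normalization, a median shift, other dim-probe filters, an intensity trend, the deposited table, the methods' t-test, a replicate block, outlier spots kept, means over probes and each flask left out.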

Additional observations from a re-analysis of the deposited data

How the results depend on the processing

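The UBE2C difference was below 0 under the 10 alternatives that recompute a probe's values (the others leave it as it is), with -2.70 after normexp background correction and -3.33 after scale normalization, and -3.48 to -3.38 when each flask was left out. UBE2S and CDC20 were below 0 and ANAPC11 above 0 under the same 10, while FZR1, ANAPC1, ANAPC5, ANAPC10, CDC27 and FBXO5 changed sign under at least 1. Called probes over the array (1487) numbered 0 after normexp correction, 760 among probes well above background on all 4 arrays, 0 with the methods' t-test after adjustment, and 728 to 4536 with a flask left out. Without resistant flask 1 or 2 they were 743 and 728, and without naive flask 1 or 2 they were 3733 and 4536. Called genes of the pathway lists (1) numbered 0 after normexp correction, quantile normalization, no filter, the filter on all 4 arrays, the deposited table, the adjusted t-test, and with outlier spots kept. They were 2 with an intensity trend or with means over probes, 3 with the unadjusted t-test, and 0 to 7 with a flask left out (7 without naive flask 1, 6 without naive flask 2, 0 without either resistant flask). A lone flask is assumed there to vary like the other line. With the replicate number as a block, 1375 probes and 0 list genes were called. Same-numbered flasks deviated with a correlation of 0.12, and with 2 pairs the numbers are not taken to pair them. The cause of these changes was not tested.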
